A study of Danio rerio with 9 samples.

Results

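Molecular chaperones are proteins that bind unfolded or partly folded proteins and help them reach, keep or regain their shape. Hsp70 proteins bind and release substrates in a cycle of ATP hydrolysis that DnaJ (J domain) proteins start and that nucleotide exchange factors, among them the Hsp110 proteins, bring to an end. Hsp90 acts on a later stage of folding of kinases and steroid receptors, the TRiC/CCT ring folds actin and tubulin, and a ring of Hsp60 with a lid of Hsp10 folds proteins in the mitochondrial matrix. Small heat shock proteins hold aggregating proteins without ATP. In the liver, a secretory organ rich in mitochondria, these systems serve both new proteins and proteins damaged by heat, oxidants or reactive drug products.

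The chaperone and co-chaperone genes described here were every row of the deposited table whose gene name began with hsp and a digit, hspa, hspb, hspd, hspe, hsph, dnaja, dnajb, dnajc, or cct and a digit, leaving out 6 genes of the endoplasmic reticulum (hspa5, hsp90b1, dnajb9a, dnajb9b, dnajb11 and dnajc3a). This gave 78 genes of 32520, of which 67 passed the filter on low counts. By name they comprised 3 Hsp90, 13 Hsp70, 2 Hsp110, 2 mitochondrial chaperonin, 10 small heat shock protein, 7 CCT, 5 DnaJ A, 11 DnaJ B and 23 DnaJ C genes and 2 genes of Hsp binding proteins. The name rule does not sort by compartment. Among the genes tested, 8 (hspa13, dnajb12a, dnajb12b, dnajb14, dnajc1, dnajc3b, dnajc10 and dnajc18) were assigned to the endoplasmic reticulum, as their mammalian counterparts are known in or on it. This assignment may not be complete, and dnajc25 was not placed in it. The gene tcp1, which encodes the first CCT subunit, is not taken by the name rule. Some J domain proteins have roles outside folding, such as dnajc24 in diphthamide synthesis, known from yeast and mammals.

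The livers were microdissected from wild-type zebrafish larvae, and poly A RNA was sequenced in 9 libraries. The larvae spent 24 h in vehicle, in 1 mM metronidazole or in 10 mM metronidazole, and each treatment has 3 libraries. This drug is a nitroimidazole antibiotic that is also used as a prodrug with a bacterial nitroreductase to ablate cells in transgenic zebrafish; the genotype label of all groups is wild type. The larval age, the vehicle's composition and whether a library held 1 liver or a pool, are not stated in the labels, so p-values measure the spread between these libraries, which may be technical. Total counts ranged from 29993109 to 41300673 per library. The TMM scaling factor was 0.877 for 1 mM replicate 3 and 0.963 to 1.11 for the others. On the second principal component of all tested genes, the score of 1 mM replicate 3 was -76.78 while the other 8 scored -5.99 to 26.65, and counts of calls are given with and without it. The 10 mM replicate 3 library was sequenced on lane 8 and all others on lane 7, by the column names. Hepatocyte markers were high in every library (in CPM, counts scaled to a common library size after TMM), with 8 genes summing to 96563 to 105265 CPM in vehicle, 93156 to 142902 CPM at 1 mM and 87814 to 105676 CPM at 10 mM. The libraries also held exocrine pancreas RNA, with 9 markers summing to 7619.6 to 16249 CPM in vehicle, 5559 to 16555 CPM at 1 mM and 8768 to 18209.9 CPM at 10 mM. Summed markers of muscle, intestine, erythroid, endothelial, leukocyte, stellate and lens cells overlapped between vehicle and 10 mM. Those of skin (5 genes, led by krt91) did not, at 225 to 312 CPM in vehicle, 212 to 394 CPM at 1 mM and 215 to 221 CPM at 10 mM. Singly, each skin gene overlapped, with krt91 at 176 to 210 CPM in vehicle and 171 to 186 CPM at 10 mM. Of the skin genes only krt5 was called, lower at 10 mM against vehicle, and it ranged from 0.164 to 41.4 CPM within vehicle. Among markers of the other lists, gc (hepatocyte) and lrata (stellate) were called lower in that comparison, and pdgfrb (stellate) higher. At 10 mM against 1 mM, epcam (biliary) and slc15a1b (intestine) were called higher. In the same comparison gc, slc4a1a (erythroid), tie1 (endothelial), coro1a (leukocyte) and steap4 (stellate) were called lower. At 1 mM against vehicle hbae3 (erythroid) was called higher. At 1 mM the erythroid sum reached 2392 CPM and the leukocyte sum 68.6 CPM, above the highest of the other groups (1478 and 36.2 CPM). The sum of biliary markers (6 genes, led by krt18a.1 and anxa4) did not overlap between vehicle and 10 mM either, at 1573 to 1691 CPM in vehicle, 1552 to 2573 CPM at 1 mM and 1917 to 2026 CPM at 10 mM. Singly, only krt18a.1 (773 to 831 CPM in vehicle, 1039 to 1122 CPM at 10 mM) and epcam (5.83 to 6.79 and 7.75 to 9.87 CPM) did not overlap. The other biliary markers, anxa4 among them, overlapped, and 0 of the 6 were called at 10 mM against vehicle. The part of these cell types in the results was not tested, and in whole livers more cells of a type and more RNA per cell cannot be told apart.

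At 10 mM against vehicle, 19 of the 67 tested chaperone genes rose and 1 fell (adjusted p below 0.05 by the edgeR quasi-likelihood test over all 16766 tested genes). Over all tested genes 9.74% rose and 7.43% fell, against 28.4% and 1.49% of the chaperone genes. Of the 19, hspb6 passed the count filter through its 10 mM libraries alone, so it was tested only through the group where it was high. Without hspb6, a count added after the values were seen, 18 of 66 rose (27.3%). The median log2 fold change of the tested chaperone genes was 0.42, and that of all tested genes -0.03. In 36 of the 67 every 10 mM library lay above every vehicle library, and in 5 it lay below. The 36 include hspb6 and hsp70.1, which passed the count filter through the 10 mM group. Over all tested genes those shares were 20.2% and 20.4%. At 1 mM none of the 67 passed the threshold, when 0.889% of all tested genes rose and 0.0954% fell, and 7 had an unadjusted p below 0.05, 5 higher and 2 lower (7.59% and 4.01% of all tested genes). DESeq2 called 1 of the 67 higher at 1 mM (1.49%), hspa4a, when it called 2.53% of all tested genes higher. The 7 were hspa4a, dnajc9, hspe1, dnajc3b and hspa13, which were higher, and dnajb1a and dnajc18, which were lower (adjusted p from 0.06298 for hspa4a to 0.4203 for hspa13). The median log2 fold change of the tested chaperone genes at 1 mM was 0.03. Between the doses, 19 rose at 10 mM and 2 fell, beside 9.39% and 9.41% of all tested genes, with a median log2 difference of 0.34. The 19 include hspb6, and without it 18 of 66 rose (27.3%) and 2 fell. This comparison and that with vehicle share the 10 mM libraries, so their values are set side by side and are not independent. Without 1 mM replicate 3, 29 chaperone genes rose against vehicle and 32 against 1 mM, when the shares over all tested genes were 13.1% and 11.9%. Both counts include hspb6, and the 29 also include hsp70.1. Without vehicle replicate 3, 11 rose against vehicle, and without vehicle replicate 2 or 10 mM replicate 1, 12, when 6.29%, 6.44% and 6.61% of all tested genes rose. These counts include hspb6 as well. No call of the 24 genes called in any comparison turned its direction under an alternative, and beside hspb6, 9 calls against vehicle were kept under all that gave a value, namely hspa4a, hspd1, hspa9, hspa13, hspbp1, dnaja3a, dnajc21, dnajc3b and dnajc5ga.

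**Figure D1:**
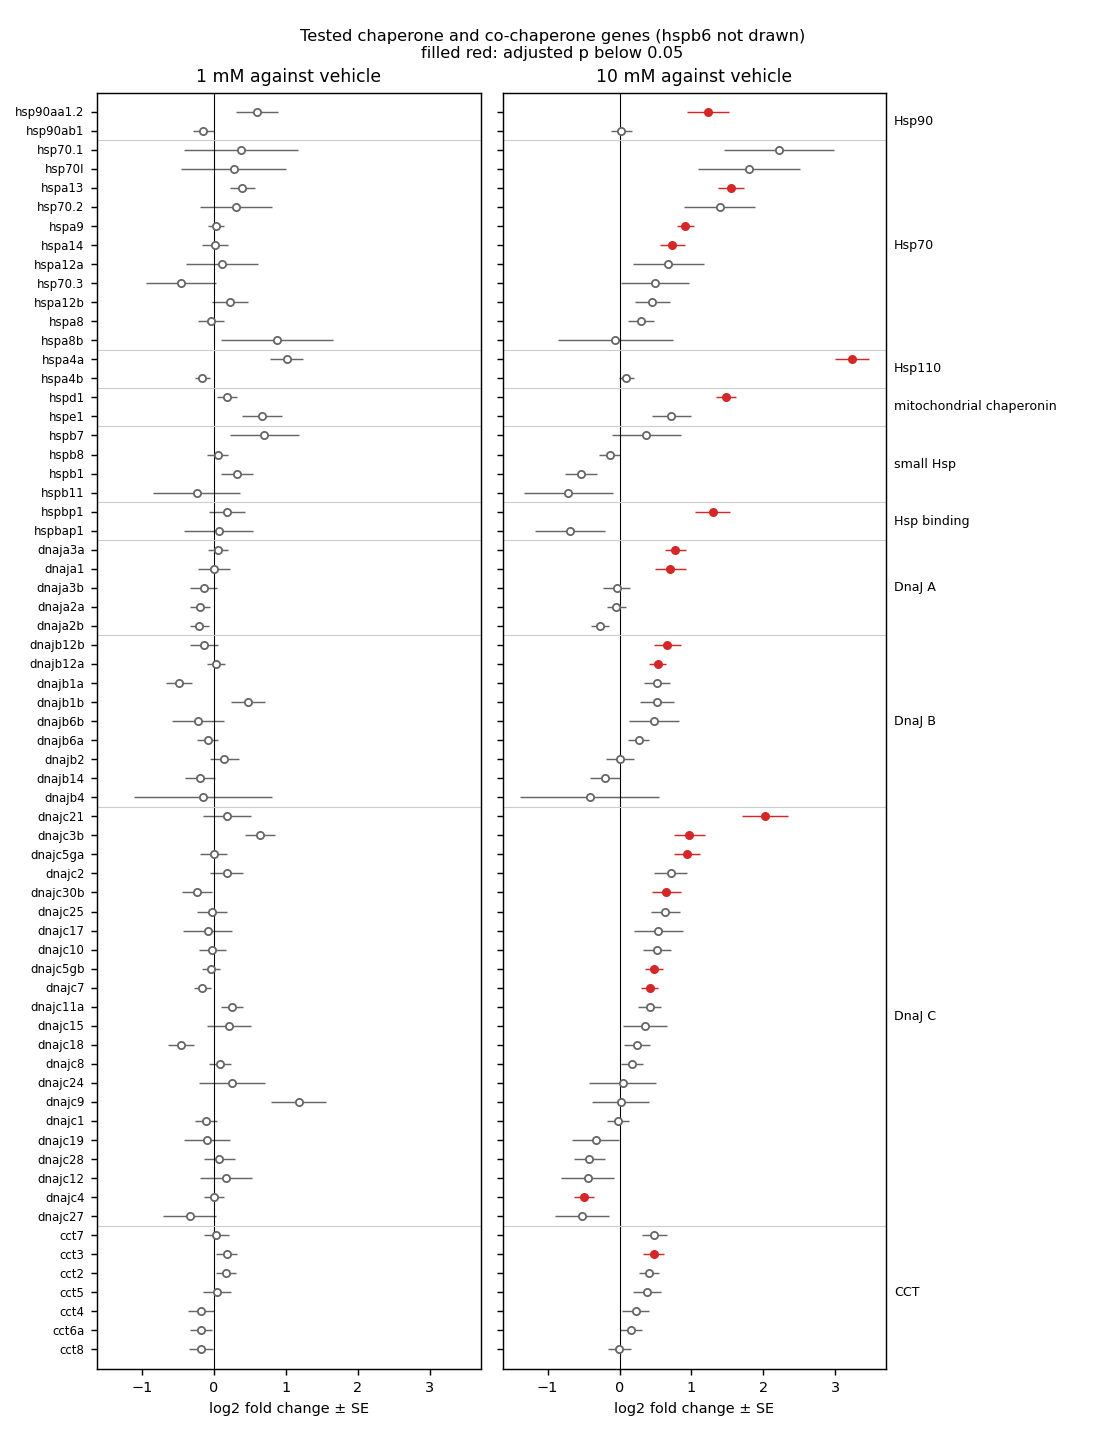
Log2 fold change ± SE of 66 tested chaperone genes (hspb6 is not drawn, since its vehicle libraries held 0 to 2 counts) at 1 mM and at 10 mM against vehicle, grouped by family; filled red points have an adjusted p below 0.05. No point is filled at 1 mM, and at 10 mM hspa4a lies farthest to the right, at log2 3.23.

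**Figure D2:**
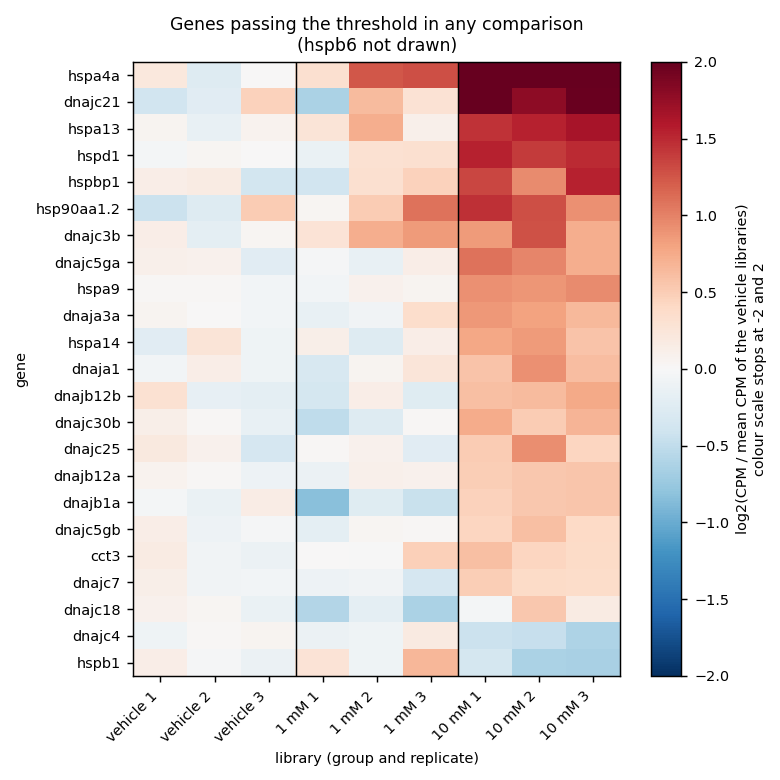
Log2 ratio of CPM in each of the 9 libraries to the mean of the vehicle libraries for the chaperone genes called in any comparison (hspb6 not drawn), ordered by their change at 10 mM; the colour scale stops at -2 and 2. The 3 columns of 10 mM are red for all but dnajc4, hspb1 and, in replicate 1, dnajc18. All 3 libraries at 1 mM lie above the vehicle mean for hspa4a, dnajc3b, hspa13 and hsp90aa1.2, farthest in hspa4a replicates 2 and 3.

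hspa4a, 1 of 2 Hsp110 genes, had the largest log2 change of the called chaperone genes other than hspb6. Hsp110 proteins are relatives of Hsp70 that release ADP from it and so free its substrate. hspa4a (ENSDARG00000004754) measured 3.83, 2.76 and 3.34 CPM in vehicle, 4.13, 7.84 and 8.09 CPM at 1 mM, and 29.3, 30.5 and 33.2 CPM at 10 mM. Every 10 mM library lay above every other, and all 3 libraries at 1 mM above vehicle. It rose 9.36-fold at 10 mM against vehicle (log2 3.23, SE 0.24, adjusted p = 8.28e-06), and it was 4.64-fold higher at 10 mM than at 1 mM (log2 2.22, SE 0.22, adjusted p = 6.58e-05). At 1 mM its difference from vehicle missed the threshold (log2 1.01, SE 0.23, adjusted p = 0.06298), and hspa4a passed when 1 mM replicate 1 was left out, with the DESeq2 test or with no count filter (adjusted p 0.00133 to 0.00396). Its paralog hspa4b (ENSDARG00000018989) measured 52.3, 50.9 and 54.1 CPM in vehicle, 43.7, 47.5 and 49.6 CPM at 1 mM, and 55.4, 56.3 and 56.5 CPM at 10 mM. The 10 mM libraries lay just above those of vehicle, by a difference that missed the threshold (log2 0.10, SE 0.11, adjusted p = 0.611). Within libraries, the log2 ratio of hspa4a to hspa4b went from -4.00 ± 0.22 to -0.86 ± 0.08 (SD, n = 3) at 10 mM, with no overlap (exact two-sided permutation p = 0.1, the smallest that 3 against 3 libraries can give, and 0.15 adjusted over the 9 gene pairs compared, which were chosen after their values were seen). At 1 mM the ratio stood at -2.87 ± 0.46 (exact permutation p = 0.1, 0.45 adjusted over the 9 pairs). At 10 mM against vehicle the ratio of dnaja2a to dnaja2b also gave exact permutation p = 0.1, at a log2 difference of 0.22. So did that of dnajc5ga to dnajc5gb, at 0.46. The ratios of dnajb6a to dnajb6b and of dnajb12a to dnajb12b overlapped between these groups (exact permutation p = 0.5 and 0.4). hspa4b passed the threshold at 10 mM against 1 mM when 1 mM replicate 3 was left out (adjusted p = 0.0449).

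Of the mitochondrial folding machine, hspd1, hspa9 and dnaja3a rose at 10 mM. Hsp60, encoded by hspd1, forms the folding chamber of the matrix and Hsp10, encoded by hspe1, its lid, and the genes lie next to each other in the RefSeq gene table (GRCz12tu). hspd1 (ENSDARG00000056160) measured 35.2, 37.3 and 36.5 CPM in vehicle, 33.2, 45.02 and 45.1 CPM at 1 mM, and 105, 96.04 and 102 CPM at 10 mM. The 10 mM libraries were 2.78-fold higher than vehicle with no overlap (log2 1.48, SE 0.14, adjusted p = 2.46e-05) and 2.46-fold higher than 1 mM (log2 1.30, SE 0.14, adjusted p = 7.33e-05). hspe1 (ENSDARG00000056167) measured 30.6, 30.96 and 34.1 CPM in vehicle, 28.04, 43.3 and 80.7 CPM at 1 mM, and 58.5, 50.01 and 49.3 CPM at 10 mM. All 10 mM libraries lay above vehicle, but 1 mM replicate 3 was the highest of the 9, and the change at 10 mM missed the threshold (log2 0.72, SE 0.28, adjusted p = 0.0956). At 10 mM against vehicle hspe1 passed it when 1 mM replicate 1 or 3 was left out, with the DESeq2 test, with no count filter or with only the 6 libraries compared (adjusted p 0.0004198 to 0.0489). Against 1 mM its difference of 0.05 (adjusted p = 0.921) became a call when 1 mM replicate 3 was left out (adjusted p = 0.0219), and 1 mM against vehicle became one when 1 mM replicate 1 was left out (adjusted p = 0.0479). The log2 ratio of hspd1 to hspe1 went from 0.19 ± 0.09 to 0.95 ± 0.10 at 10 mM (exact permutation p = 0.1, 0.15 adjusted), with no overlap between the groups.

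Mitochondrial Hsp70 (mortalin), encoded by hspa9, pulls proteins through the inner membrane and folds them in the matrix. hspa9 (ENSDARG00000003035) measured 136, 136 and 128 CPM in vehicle, 129, 141 and 138 CPM at 1 mM, and 252, 247 and 255 CPM at 10 mM. All 10 mM libraries, at 251 ± 4.21 CPM (SD, n = 3), lay above all others, 1.89-fold above vehicle (log2 0.92, SE 0.11, adjusted p = 0.000159) and 1.85-fold above 1 mM (log2 0.89, SE 0.11, adjusted p = 0.000239). The J domain partner of this Hsp70 in the matrix, Tid1 in mammals, is encoded by dnaja3a and dnaja3b. dnaja3a (ENSDARG00000058494) measured 45.4, 43.9 and 41.98 CPM in vehicle, 39.4, 41.6 and 55.6 CPM at 1 mM, and 80.1, 76.1 and 68.7 CPM at 10 mM. It rose with no overlap (log2 0.78, SE 0.14, adjusted p = 0.00226), and stood at log2 0.72 against 1 mM (adjusted p = 0.00387). Its paralog dnaja3b (ENSDARG00000102295) ranged from 3.33 to 4.48 CPM over all 9 libraries, with overlap between groups (log2 -0.04, SE 0.19, adjusted p = 0.916). The log2 ratio of dnaja3a to dnaja3b went from 3.38 ± 0.17 to 4.19 ± 0.26 at 10 mM (exact permutation p = 0.1, 0.15 adjusted).

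Among all 11 tested genes whose mammalian counterparts are known in mitochondria, an assignment made after the values were seen, 4 rose at 10 mM (hspd1, hspa9, dnaja3a and dnajc30b) and 1 fell (dnajc4), with a median log2 change of 0.42. The 8 tested genes assigned to the endoplasmic reticulum had 4 risen and 0 fallen with a median of 0.53. The other 48, with dnajc25 among those not called, had 11 risen, hspb6 among them, and 0 fallen. Their median was 0.41 (9.74% of all tested genes rose and 7.43% fell). The dnajc30b product lies in the inner membrane beside ATP synthase in mammals. dnajc30b (ENSDARG00000079415) measured 3.59, 3.38 and 2.99 CPM in vehicle, 2.33, 2.77 and 3.36 CPM at 1 mM, and 5.58, 4.74 and 5.32 CPM at 10 mM. It was higher at 10 mM with no overlap (log2 0.65, SE 0.20, adjusted p = 0.0405). dnajc30b missed the threshold when vehicle replicate 1, 2 or 3, 1 mM replicate 2 or 10 mM replicate 1, 2 or 3 was left out, with no count filter or with the replicate block (adjusted p 0.0503 to 0.146), and against 1 mM its log2 0.89 (adjusted p = 0.00882) held under all alternatives that gave a value. dnajc4 (ENSDARG00000024090) measured 12.8, 13.9 and 14.2 CPM in vehicle, 12.5, 12.8 and 15.5 CPM at 1 mM, and 10.2, 9.96 and 8.89 CPM at 10 mM. It was the 1 chaperone gene that fell against vehicle (log2 -0.50, SE 0.14, adjusted p = 0.0263), and it stood at log2 -0.49 against 1 mM (adjusted p = 0.0271). Against vehicle dnajc4 missed the threshold when vehicle replicate 1, 2 or 3 or 10 mM replicate 1, 2 or 3 was left out, with no count filter or with the replicate block (adjusted p 0.0543 to 0.102). Against 1 mM it missed the threshold when 1 mM replicate 3 or 10 mM replicate 1, 2 or 3 was left out, with no count filter, with only the 6 libraries compared or with the replicate block (adjusted p 0.05403 to 0.1002). The inner membrane genes dnajc15 and dnajc19, which belong to the import motor, and the outer membrane gene dnajc11a stood at log2 0.35, -0.33 and 0.42 at 10 mM against vehicle (adjusted p = 0.489, 0.548 and 0.08795). dnajc11a passed the threshold when 1 mM replicate 3 was left out or with only the 6 libraries compared (adjusted p 0.0144 to 0.0194). dnajc28 stood at log2 -0.42 (adjusted p = 0.216).

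**Figure D3:**
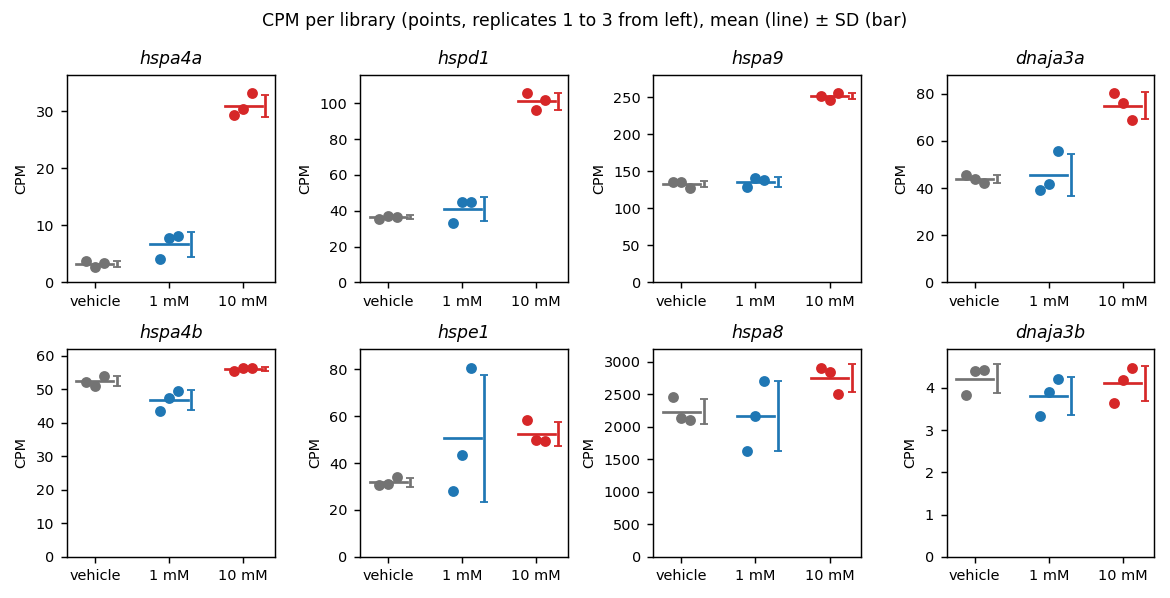
CPM of 8 chaperone genes in each library (points, replicates 1 to 3 from the left), with group means (lines) and SD (bars), on linear axes that start at 0. In the upper row hspa4a, hspd1, hspa9 and dnaja3a stand apart at 10 mM, while the lower row shows hspa4b, hspe1, hspa8 and dnaja3b, where 1 mM replicate 3 is the highest library at 1 mM in each. For hspa4b and dnaja3b that rank depends on the TMM factors (1.11, 1.05 and 0.877 in 1 mM replicates 1 to 3). Their unscaled counts there were 1651, 1677 and 1563 for hspa4b and 126, 138 and 133 for dnaja3b.

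Of 11 tested Hsp70 genes, 3 rose at 10 mM against vehicle (hspa13, hspa9 and hspa14) and none fell, and 8 were not called. Over all tested genes 9.74% rose and 7.43% fell. The median log2 change was 0.74 for the 11 genes and -0.03 for all tested genes. The 11 include hsp70.1, which passed the count filter through the 10 mM group. hspa8 encodes the constitutive cytosolic Hsc70. hspa8 (ENSDARG00000068992) measured 2455, 2141 and 2109 CPM in vehicle, 1628, 2165 and 2711 CPM at 1 mM, and 2910.4, 2851 and 2508 CPM at 10 mM. The 10 mM libraries lay above vehicle, and 1 mM replicates spanned both groups; the difference missed the threshold (log2 0.30, SE 0.18, adjusted p = 0.292). hspa8 passed it at 10 mM against 1 mM when 1 mM replicate 3 was left out (adjusted p = 0.0141), at a log2 difference of 0.35 and adjusted p = 0.217 with all libraries. The log2 ratio of hspa9 to hspa8 went from -4.07 ± 0.10 to -3.45 ± 0.14 at 10 mM with no overlap (exact permutation p = 0.1, 0.15 adjusted). The heat-inducible cytosolic genes hsp70.1, hsp70.2 and hsp70.3 lie side by side in the RefSeq table, and reads may be split among near-identical copies, so the values of single copies are uncertain. With hsp70l and hspa1b they make 5 genes. Summed over these genes, the libraries held 3.92, 2.39 and 2.14 CPM in vehicle, 4.23, 2.21 and 1.78 CPM at 1 mM and 3.63, 4.93 and 10.97 CPM at 10 mM. The 10 mM replicate 3 library, from the other lane, was the highest (the part of the lane was not tested), and 10 mM replicate 1 lay below vehicle replicate 1. Singly, hsp70.1 stood at log2 2.22 (SE 0.77, adjusted p = 0.0662), hsp70.2 at 1.39 (adjusted p = 0.0722), hsp70l at 1.80 (adjusted p = 0.106) and hsp70.3 at 0.49 (adjusted p = 0.5405) at 10 mM against vehicle, and none passed. hsp70.1 (ENSDARG00000029688) had 16, 3 and 8 counts in vehicle, 23, 3 and 7 counts at 1 mM, and 22, 41 and 53 counts at 10 mM. With counts this low, hsp70.1 passed the threshold when 1 mM replicate 1 or 3 was left out, with the DESeq2 test, with no count filter, with only the 6 libraries compared or with halved counts (adjusted p 0.0178 to 0.0492). hsp70.2 passed the threshold when vehicle replicate 1 was left out, with the DESeq2 test or with no count filter (adjusted p 0.02199 to 0.0303), and hsp70l passed the threshold with the DESeq2 test or with no count filter (adjusted p 0.0361 to 0.0459). Against 1 mM, hsp70.1 passed the threshold when 1 mM replicate 1 was left out (adjusted p = 0.04303) and hsp70l passed the threshold when 1 mM replicate 1 was left out (adjusted p = 0.0413), and 1 mM replicate 1 held the most hsp70 counts of its group.

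Other Hsp70 relatives were called. Hspa13 (Stch) is an Hsp70 ATPase of the endoplasmic reticulum in mammals that has no peptide-binding domain. hspa13 (ENSDARG00000040984) measured 5.72, 4.97 and 5.75 CPM in vehicle, 6.59, 9.08 and 5.903 CPM at 1 mM, and 14.9, 15.96 and 17.2 CPM at 10 mM. All 10 mM libraries lay above all others, 2.92-fold above vehicle (log2 1.55, SE 0.18, adjusted p = 9.95e-05) and 2.23-fold above 1 mM (log2 1.16, SE 0.18, adjusted p = 0.000731). Hspa14 pairs with the J protein Dnajc2 at the exit of the ribosome, where both meet new chains. hspa14 (ENSDARG00000058030) measured 5.56, 7.75 and 6.12 CPM in vehicle, 7.04, 5.43 and 7.14 CPM at 1 mM, and 11.03, 11.7 and 9.67 CPM at 10 mM. It rose with no overlap (log2 0.74, SE 0.18, adjusted p = 0.0128), and stood at log2 0.72 against 1 mM (adjusted p = 0.0141). hspa14 missed the threshold when vehicle replicate 1 or 3 was left out (adjusted p 0.0584 to 0.0673), and against 1 mM when 1 mM replicate 2 or 10 mM replicate 1 was left out (adjusted p 0.0522 to 0.0615). Its partner dnajc2 (ENSDARG00000070477) stood at log2 0.71 with no overlap and an adjusted p of 0.0502. dnajc2 passed the threshold when 1 mM replicate 2 or 3 was left out, with DESeq2 size factors, with the DESeq2 test, with no count filter, with only the 6 libraries compared, without mitochondrially encoded and the 20 most abundant genes or with halved counts (adjusted p 0.0177 to 0.04996). The divergent hspa12a and hspa12b and the second Hsc70-like gene hspa8b stood at log2 0.68, 0.46 and -0.06 at 10 mM (adjusted p = 0.398, 0.243 and 0.972).

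Of the Hsp90 genes, hsp90ab1 encodes the constitutive cytosolic form and hsp90aa1.2 and hsp90aa1.1 the alpha forms, which are heat-inducible in mammals; the alpha genes lie next to each other in the RefSeq table, and reads of near-identical copies may be split between them. hsp90ab1 (ENSDARG00000029150) measured 3717, 3425 and 3322 CPM in vehicle, 2765, 3204 and 3473 CPM at 1 mM, and 3767, 3644 and 3210.3 CPM at 10 mM. The groups overlapped (log2 0.02, SE 0.15, adjusted p = 0.944). hsp90aa1.2 (ENSDARG00000024746) measured 3.37, 3.799 and 6.47 CPM in vehicle, 4.66, 6.45 and 9.62 CPM at 1 mM, and 12.5, 11.1 and 8.54 CPM at 10 mM. Its 10 mM libraries lay above all vehicle libraries (log2 1.24, SE 0.29, adjusted p = 0.0109), while 1 mM replicate 3 lay between the 10 mM values. hsp90aa1.2 missed the threshold when vehicle replicate 1 or 2 or 10 mM replicate 1 was left out (adjusted p 0.0502 to 0.0592). Against 1 mM it stood at log2 0.64 (adjusted p = 0.151), and hsp90aa1.2 passed the threshold when 1 mM replicate 3 was left out (adjusted p = 0.0213). hsp90aa1.1 held at most 8 counts in any library and was not tested.

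The CCT genes encode subunits of the TRiC ring, which takes up all of them. Of 7 tested members, 1 (cct3) rose at 10 mM against vehicle, none rose at 1 mM, and none rose at 10 mM against 1 mM, beside 9.74%, 0.889% and 9.39% of all tested genes, so that the count against vehicle was near the background; their median log2 change at 10 mM was 0.38. cct3 (ENSDARG00000016173) measured 76.5, 65.5 and 63.3 CPM in vehicle, 68.6, 68.4 and 94.7 CPM at 1 mM, and 104, 91.9 and 88.9 CPM at 10 mM. The 10 mM libraries lay above vehicle (log2 0.47, SE 0.15, adjusted p = 0.0468), with 1 mM replicate 3 among them. cct3 missed the threshold when vehicle replicate 1, 2 or 3, 1 mM replicate 2 or 10 mM replicate 1, 2 or 3 was left out or with the replicate block (adjusted p 0.0554 to 0.171). cct7 stood at log2 0.48, cct2 at 0.41, cct5 at 0.38, cct4 at 0.22, cct6a at 0.16, and cct8 differed from vehicle by less than 0.01 (adjusted p from 0.0738 to 0.997), and tcp1, the eighth subunit gene, at 0.37 (adjusted p = 0.117). Relative to the vehicle mean, these 8 genes lay at log2 -0.66 to 0.00 in 1 mM replicate 1, -0.25 to 0.10 in 1 mM replicate 2 and 0.09 to 0.51 in 1 mM replicate 3. In the 10 mM libraries they lay at 0.04 to 0.60, 0.02 to 0.50 and -0.06 to 0.43. The 3 libraries at 1 mM thus spread below, around and above vehicle, with replicate 3 among the 10 mM libraries. Their TMM factors were 1.11, 1.05 and 0.877, and the part of scaling in this spread was not tested. Without 1 mM replicate 3, 4 CCT genes rose at 10 mM against vehicle and all 7 against 1 mM, with adjusted p at 10 mM against 1 mM from 0.00106 to 0.0315. In that fit the shares of all tested genes that rose were also larger, at 13.1% against vehicle and 11.9% against 1 mM. Against vehicle cct7 passed the threshold when 1 mM replicate 1 or 3 was left out, with the DESeq2 test, with no count filter or with only the 6 libraries compared (adjusted p 0.002595 to 0.0431), cct2 passed the threshold when 1 mM replicate 1 or 3 was left out, with the DESeq2 test or with only the 6 libraries compared (adjusted p 0.01001 to 0.0444), and cct5 passed the threshold when 1 mM replicate 3 was left out or with only the 6 libraries compared (adjusted p 0.0173 to 0.0242).

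**Figure D4:**
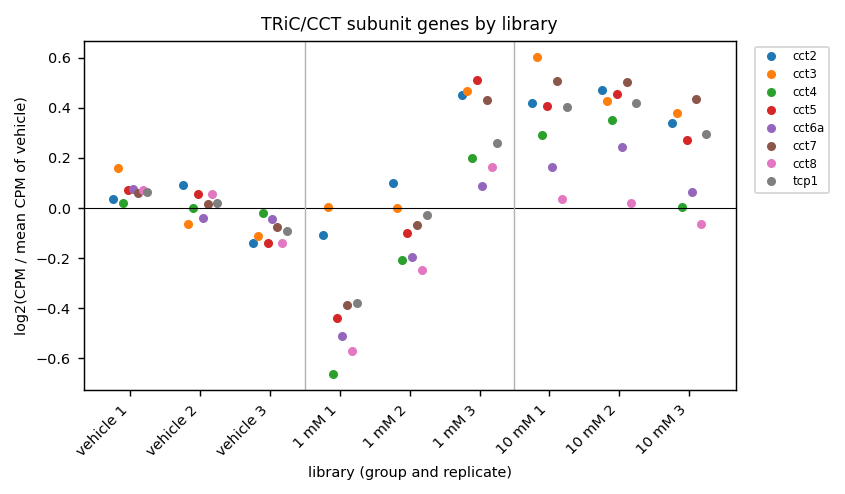
Log2 ratio of CPM to the mean of the vehicle libraries for the 7 CCT members and tcp1 in each of the 9 libraries. The median of the 8 genes is -0.41 in 1 mM replicate 1 and 0.34 in 1 mM replicate 3, and from 0.28 to 0.42 at 10 mM.

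DnaJ proteins choose the substrates of Hsp70 and start its ATP hydrolysis. Against vehicle, 2 of 5 tested DnaJ A genes, 2 of 9 DnaJ B genes and 6 of 22 DnaJ C genes rose at 10 mM, and 1 DnaJ C gene (dnajc4) fell, with median log2 changes of -0.04, 0.48 and 0.38 (9.74% of all tested genes rose and 7.43% fell). The 6 DnaJ C genes became 3 without vehicle replicate 2 or 3 or 10 mM replicate 1 and 10 without 1 mM replicate 3. The 2 DnaJ B genes became 1 without vehicle replicate 2 or without 10 mM replicate 1, 2 or 3, 0 without vehicle replicate 3, and 3 without 1 mM replicate 1 or 3. The 2 DnaJ A genes became 1 without any one of vehicle replicates 1 to 3, 1 mM replicate 2 or 10 mM replicates 1 to 3. The share of all tested genes that rose moved as well, to 6.76%, 6.44% and 6.29% without vehicle replicates 1, 2 and 3. It was 10.3%, 8.81% and 13.1% without 1 mM replicates 1, 2 and 3, and 6.61%, 8.47% and 6.84% without 10 mM replicates 1, 2 and 3. The general cytosolic J proteins of type A are encoded by dnaja1, dnaja2a and dnaja2b. dnaja1 (ENSDARG00000030972) measured 2.49, 2.84 and 2.44 CPM in vehicle, 2.06, 2.69 and 3.05 CPM at 1 mM, and 3.82, 4.87 and 3.99 CPM at 10 mM. It rose with no overlap (log2 0.71, SE 0.22, adjusted p = 0.0414) and stood at log2 0.70 against 1 mM (adjusted p = 0.0406). dnaja1 missed the threshold when vehicle replicate 1, 2 or 3, 1 mM replicate 2 or 10 mM replicate 1, 2 or 3 was left out, with no count filter or with the replicate block (adjusted p 0.0577 to 0.134). Against 1 mM it missed the threshold when vehicle replicate 1, 2 or 3, 1 mM replicate 1 or 2 or 10 mM replicate 1, 2 or 3 was left out, with no count filter, with only the 6 libraries compared or with the replicate block (adjusted p 0.0573 to 0.125). dnaja2a stood at log2 -0.05 (adjusted p = 0.857) and dnaja2b at -0.27 (adjusted p = 0.173) at 10 mM against vehicle.

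The type B gene dnajb1a is one of 2 fish genes for Hsp40, the classic heat-inducible partner of cytosolic Hsp70. dnajb1a (ENSDARG00000099383) measured 6.35, 5.98 and 7.27 CPM in vehicle, 3.65, 5.52 and 4.79 CPM at 1 mM, and 9.01, 9.53 and 9.64 CPM at 10 mM. It was lowest at 1 mM and highest at 10 mM, so that the difference between the doses passed (log2 1.01, SE 0.18, adjusted p = 0.00216) while that from vehicle did not (log2 0.52, SE 0.18, adjusted p = 0.0625). Against vehicle dnajb1a passed the threshold when 1 mM replicate 1 or 3 was left out, with the DESeq2 test or with only the 6 libraries compared (adjusted p 0.01496 to 0.0353). The log2 ratio of dnajb1a to dnajb1b went from 1.70 ± 0.19 to 0.73 ± 0.36 at 1 mM (exact permutation p = 0.1, 0.45 adjusted) and was 1.70 ± 0.22 at 10 mM. Both dnajb12 genes, whose mammalian counterpart sits in the membrane of the endoplasmic reticulum and takes part in the disposal of misfolded membrane proteins, rose. dnajb12a (ENSDARG00000039363) measured 15.3, 14.8 and 13.6 CPM in vehicle, 13.5, 15.6 and 15.5 CPM at 1 mM, and 20.4, 21.3 and 21.4 CPM at 10 mM. dnajb12b (ENSDARG00000087473) measured 8.05, 5.802 and 5.73 CPM in vehicle, 5.13, 7.13 and 5.49 CPM at 1 mM, and 9.895, 10.1 and 11.002 CPM at 10 mM. Neither overlapped between 10 mM and vehicle (log2 0.53, SE 0.12, adjusted p = 0.00924 for dnajb12a, and log2 0.66, SE 0.19, adjusted p = 0.0277 for dnajb12b), and they stood at log2 0.50 and 0.80 against 1 mM (adjusted p = 0.0126 and 0.0103). Against vehicle dnajb12a missed the threshold when vehicle replicate 3 was left out (adjusted p = 0.0547), and dnajb12b missed the threshold when vehicle replicate 2 or 3 or 10 mM replicate 1, 2 or 3 was left out or with the replicate block (adjusted p 0.05005 to 0.118). The other 6 tested type B genes, dnajb1b, dnajb2, dnajb4, dnajb6a, dnajb6b and dnajb14, were not called at 10 mM and ranged from log2 -0.42 (dnajb4) to 0.52 (dnajb1b).

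Among type C genes dnajc21 changed most. Its product is a cytosolic and nucleolar factor needed to release shuttling factors from the large ribosomal subunit, as known from yeast and humans. dnajc21 (ENSDARG00000105195) measured 1.095, 1.22 and 1.97 CPM in vehicle, 0.926, 2.21 and 1.75 CPM at 1 mM, and 6.88, 4.95 and 5.65 CPM at 10 mM. All 10 mM libraries lay above all others, 4.07-fold above vehicle (log2 2.02, SE 0.32, adjusted p = 0.000953) and 3.59-fold above 1 mM (log2 1.84, SE 0.32, adjusted p = 0.00189). dnajc3b is the paralog of dnajc3a, whose mammalian counterpart p58IPK helps Hsp70 of the endoplasmic reticulum. dnajc3b (ENSDARG00000017874) measured 4.13, 3.28 and 3.88 CPM in vehicle, 4.58, 6.25 and 6.76 CPM at 1 mM, and 6.79, 9.15 and 6.199 CPM at 10 mM. The libraries of both doses lay above vehicle and overlapped each other (log2 0.97, SE 0.21, adjusted p = 0.00706 against vehicle, and log2 0.33, adjusted p = 0.311 against 1 mM). The cysteine string proteins, J proteins tied to vesicle membranes, are represented by dnajc5ga and dnajc5gb. dnajc5ga (ENSDARG00000041896) measured 4.38, 4.32 and 3.49 CPM in vehicle, 3.99, 3.68 and 4.47 CPM at 1 mM, and 8.64, 7.99 and 6.69 CPM at 10 mM. It rose without overlap (log2 0.94, SE 0.18, adjusted p = 0.00345), and dnajc5gb (ENSDARG00000017687) rose, with a mean of 15.7 ± 1.29 CPM in vehicle and 21.9 ± 1.71 CPM at 10 mM (SD, n = 3 each, log2 0.48, SE 0.13, adjusted p = 0.0220). dnajc5gb missed the threshold when vehicle replicate 2 or 3 or 10 mM replicate 1 or 2 was left out or with the replicate block (adjusted p 0.0510 to 0.104). Against 1 mM they stood at log2 0.94 and 0.52 (adjusted p = 0.00366 and 0.01395).

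Dnajc7 (Tpr2) binds Hsp70 and Hsp90 at once through TPR repeats. dnajc7 (ENSDARG00000058148) measured 33.3, 29.2 and 29.3 CPM in vehicle, 28.6, 29.01 and 24.2 CPM at 1 mM, and 43.2, 40.1 and 39.4 CPM at 10 mM. The groups of 10 mM and vehicle did not overlap (log2 0.42, SE 0.12, adjusted p = 0.0297, and log2 0.58, adjusted p = 0.00513 against 1 mM). dnajc7 missed the threshold when vehicle replicate 2 or 3 or 10 mM replicate 1 or 3 was left out (adjusted p 0.0607 to 0.122). The genes dnajc18 and dnajc25 passed between the doses but not against vehicle. dnajc18 (ENSDARG00000056005) measured 10.7, 10.3 and 9.09 CPM in vehicle, 6.67, 8.72 and 6.44 CPM at 1 mM, and 9.75, 14.6 and 11.2 CPM at 10 mM. dnajc25 (ENSDARG00000067613) measured 4.98, 4.63 and 3.46 CPM in vehicle, 4.42, 4.61 and 3.71 CPM at 1 mM, and 6.22, 8.26 and 5.84 CPM at 10 mM. Their log2 differences against 1 mM were 0.70 and 0.67 (adjusted p = 0.0187 and 0.0394), and against vehicle 0.24 and 0.64 (adjusted p = 0.4099 and 0.0509). Against 1 mM dnajc18 missed the threshold when 1 mM replicate 1 or 10 mM replicate 2 was left out (adjusted p 0.0512 to 0.06998), and dnajc25 missed the threshold when vehicle replicate 1 or 2, 1 mM replicate 1, 2 or 3 or 10 mM replicate 1 or 2 was left out or with only the 6 libraries compared (adjusted p 0.0513 to 0.137). Against vehicle dnajc25 passed the threshold when 1 mM replicate 3 was left out, with DESeq2 size factors, with the DESeq2 test, with no count filter, with the filter of 5 CPM, with only the 6 libraries compared, with the replicate block or with halved counts (adjusted p 0.0232 to 0.0482). Dnajc9, a histone chaperone of dividing cells in humans, had its highest level at 1 mM. dnajc9 (ENSDARG00000031293) measured 2.19, 1.33 and 3.76 CPM in vehicle, 4.55, 3.42 and 8.57 CPM at 1 mM, and 2.64, 2.72 and 1.98 CPM at 10 mM. It stood at log2 1.18 at 1 mM against vehicle (adjusted p = 0.209) and at -1.16 at 10 mM against 1 mM (adjusted p = 0.0521), with 1 mM replicate 3 the highest library, and neither passed. Without that library the log2 differences were 0.71 and -0.69 (adjusted p = 0.396 and 0.183). At 1 mM against vehicle dnajc9 passed the threshold with no count filter (adjusted p = 0.0223), and between the doses when vehicle replicate 2 or 3 or 1 mM replicate 2 was left out, with the DESeq2 test, with no count filter, with only the 6 libraries compared or with halved counts (adjusted p 0.00561 to 0.0497). It was chosen after its values were seen. The other type C genes that were not called ranged from log2 -0.52 (dnajc27) to 0.71 (dnajc2) at 10 mM against vehicle, among them dnajc10, a disulfide reductase of the endoplasmic reticulum, at 0.52 (adjusted p = 0.0781). dnajc10 passed the threshold when 1 mM replicate 3 was left out or with only the 6 libraries compared (adjusted p 0.0372 to 0.0450).

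Genes of 2 proteins that bind heat shock proteins were taken by the name rule. Hspbp1 is a nucleotide exchange factor of cytosolic Hsp70. hspbp1 (ENSDARG00000102937) measured 4.79, 4.92 and 3.39 CPM in vehicle, 3.33, 5.46 and 6.03 CPM at 1 mM, and 10.98, 8.43 and 12.7 CPM at 10 mM. All 10 mM libraries lay above all others, 2.45-fold above vehicle (log2 1.29, SE 0.25, adjusted p = 0.00297) and 2.17-fold above 1 mM (log2 1.12, SE 0.25, adjusted p = 0.00717). hspbap1 stood at log2 -0.69 (adjusted p = 0.387). Of 10 small heat shock protein genes, 5 passed the count filter, and the other 5, hspb2, hspb3, hspb9, hspb9l and hspb15, were at 0 counts in every library. hspb6 (ENSDARG00000077236) had 2, 2 and 0 counts in vehicle, 2, 2 and 0 counts at 1 mM, and 118, 32 and 46 counts at 10 mM. It was near 0 in all 6 libraries outside 10 mM. The gene, which encodes Hsp20, a protein of muscle in mammals, passed the count filter through its 10 mM libraries alone. It was thus tested only through the group where it was high, and its call against both other groups is given no weight. No fold is given, since the vehicle and 1 mM libraries held 0 to 2 counts each, and a fitted fold would depend on the prior count. The 9 skeletal muscle markers summed to 2.81 to 3.07 CPM in vehicle and 2.02 to 2.99 CPM at 10 mM. hspb1 encodes Hsp27, which binds actin and unfolded proteins. hspb1 (ENSDARG00000041065) measured 4.03, 3.59 and 3.39 CPM in vehicle, 4.44, 3.45 and 5.81 CPM at 1 mM, and 2.86, 2.37 and 2.34 CPM at 10 mM. It was lower at 10 mM than at 1 mM (log2 -0.85, SE 0.23, adjusted p = 0.0201), and against vehicle the difference missed the threshold (log2 -0.54, SE 0.23, adjusted p = 0.131). Against 1 mM hspb1 missed the threshold when 1 mM replicate 3 or 10 mM replicate 2 or 3 was left out or with only the 6 libraries compared (adjusted p 0.0516 to 0.0697). hspb8, which works with Bag3, ranged over 41.5 to 55.99 CPM at 10 mM and 49.8 to 51.7 CPM in vehicle (log2 -0.14, SE 0.14, adjusted p = 0.579). hspb7 and hspb11 stood at log2 0.37 and -0.71 (adjusted p = 0.661 and 0.486).

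Partner genes of these chaperones were taken from a list of 91, of which 77 matched a row and 71 were tested. At 10 mM against vehicle 15 rose and 4 fell, with a median log2 change of 0.10 beside -0.03 over all tested genes (9.74% of all tested genes rose and 7.43% fell). Without vehicle replicate 3, 9 rose, and without vehicle replicate 2 or 10 mM replicate 1, 10, when 6.29%, 6.44% and 6.61% of all tested genes rose. Without 1 mM replicate 3, 21 rose and 6 fell, when 13.1% of all tested genes rose and 10.3% fell. At 1 mM none passed, when 0.889% of all tested genes rose. DESeq2 called 2 higher (fkbp5 and ptges3b), when 2.53% of all tested genes rose. The edgeR test with no count filter called the same 2, when 1.68% rose. It called 1 (fkbp5) with halved counts and without 1 mM replicate 1, when 1.15% and about 1% of all tested genes rose. Between the doses 12 rose at 10 mM and 2 fell, beside 9.39% and 9.41% of all tested genes. Without 1 mM replicate 3, 24 rose and 2 fell, when 11.9% and 10.6% of all tested genes did. By DESeq2 19 rose and 4 fell, when 11.2% and 11% of all tested genes did. Of 4 tested heat shock factor genes and their binding protein genes, hsf1, the master factor of the heat shock response, stood at log2 0.06 (adjusted p = 0.884), and hsf2 fell (log2 -0.51, SE 0.12, adjusted p = 0.01003). The 1 mM libraries of hsf1 lay below those of vehicle (log2 -0.52, adjusted p = 0.342). They also lay below those of 10 mM (log2 0.58 for 10 mM against 1 mM, adjusted p = 0.0721), and neither difference passed. Of 22 genes of Hsp90 co-chaperones, 7 rose and 1 fell. The immunophilin gene fkbp5 (ENSDARG00000028396) rose, with a mean of 66.7 ± 18.5 CPM in vehicle and 344 ± 42.9 CPM at 10 mM (SD, n = 3 each, log2 2.37, SE 0.36, adjusted p = 0.000733), and its relative fkbp4 (ENSDARG00000008447) fell, with a mean of 76.8 ± 6.57 CPM in vehicle and 48.1 ± 6.52 CPM at 10 mM (log2 -0.67, SE 0.13, adjusted p = 0.00353); both proteins sit on Hsp90 complexes of steroid receptors. At 1 mM fkbp5 stood at log2 1.62 and ptges3b at 0.99 against vehicle (adjusted p = 0.0522 and 0.0995). The p23 genes ptges3a and ptges3b rose by log2 1.17 and 1.64 (adjusted p = 0.0111 and 0.000765), the Hsp90 ATPase activator gene ahsa1b by 0.69 (adjusted p = 0.00465), the kinase adaptor gene cdc37 by 0.53 (adjusted p = 0.0256), the phosphatase gene ppp5c by 0.53 (adjusted p = 0.0277) and the import receptor gene tomm70a by 0.36 (adjusted p = 0.0487). stip1 (Hop), which links Hsp70 to Hsp90, stood at 0.34 (adjusted p = 0.0994). Of 12 Hsp70 partner genes, grpel1, the exchange factor of mitochondrial Hsp70, rose (log2 0.77, SE 0.22, adjusted p = 0.0321) and st13 (Hip) fell (log2 -0.40, SE 0.13, adjusted p = 0.0442); bag3 stood at -0.22 and stub1 at 0.04 (adjusted p = 0.385 and 0.863). Of 9 genes of mitochondrial protein quality control, 4 rose and none fell (lonp2, on this list, acts in peroxisomes in mammals). They were trap1, the mitochondrial Hsp90 (log2 0.88, SE 0.17, adjusted p = 0.00369), clpxa and clpp, the unfoldase and protease of one complex (log2 1.03 and 0.92, adjusted p = 0.000123 and 0.00825), and timm44, which docks mitochondrial Hsp70 at the import channel (log2 0.91, SE 0.15, adjusted p = 0.00128). Of 15 genes of tcp1, prefoldin and tubulin folding, tbcb rose (log2 0.47, SE 0.15, adjusted p = 0.0479). Of 9 other known heat shock targets, the ubiquitin gene ubb and ier5 rose (log2 1.26 and 0.89, adjusted p = 0.000304 and 0.004104), the ubiquitin gene ubc fell (log2 -0.55, adjusted p = 0.00684), and the collagen chaperone gene serpinh1b stood at -0.53 (adjusted p = 0.245). Between the doses ttc4 (an Hsp90 co-chaperone), bag6, yme1l1b and afg3l2 (mitochondrial membrane proteases) rose at log2 0.67, 0.58, 0.86 and 0.38 (adjusted p = 0.0403, 0.00738, 0.00473 and 0.0332), and serpinh1a fell at -0.66 (adjusted p = 0.0191). Of the 14 calls between the doses, 9 were kept under all alternatives that gave a value, and afg3l2, fkbp4, ppp5c, serpinh1a and ttc4 were each lost without 10 mM replicate 1 and in other fits (adjusted p 0.0505 to 0.1595). hsf1, stip1, bag3, stub1 and serpinh1b did not pass and were named after their values were seen. Of the 19 partner calls against vehicle, 12 were kept under all alternatives that gave a value. The 7 others, cdc37, grpel1, ppp5c, ptges3a, st13, tbcb and tomm70a, were each lost without vehicle replicate 3, and all but ptges3a also without 10 mM replicate 1, with adjusted p from 0.0502 to 0.188 over all their losses.

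**Figure D5:**
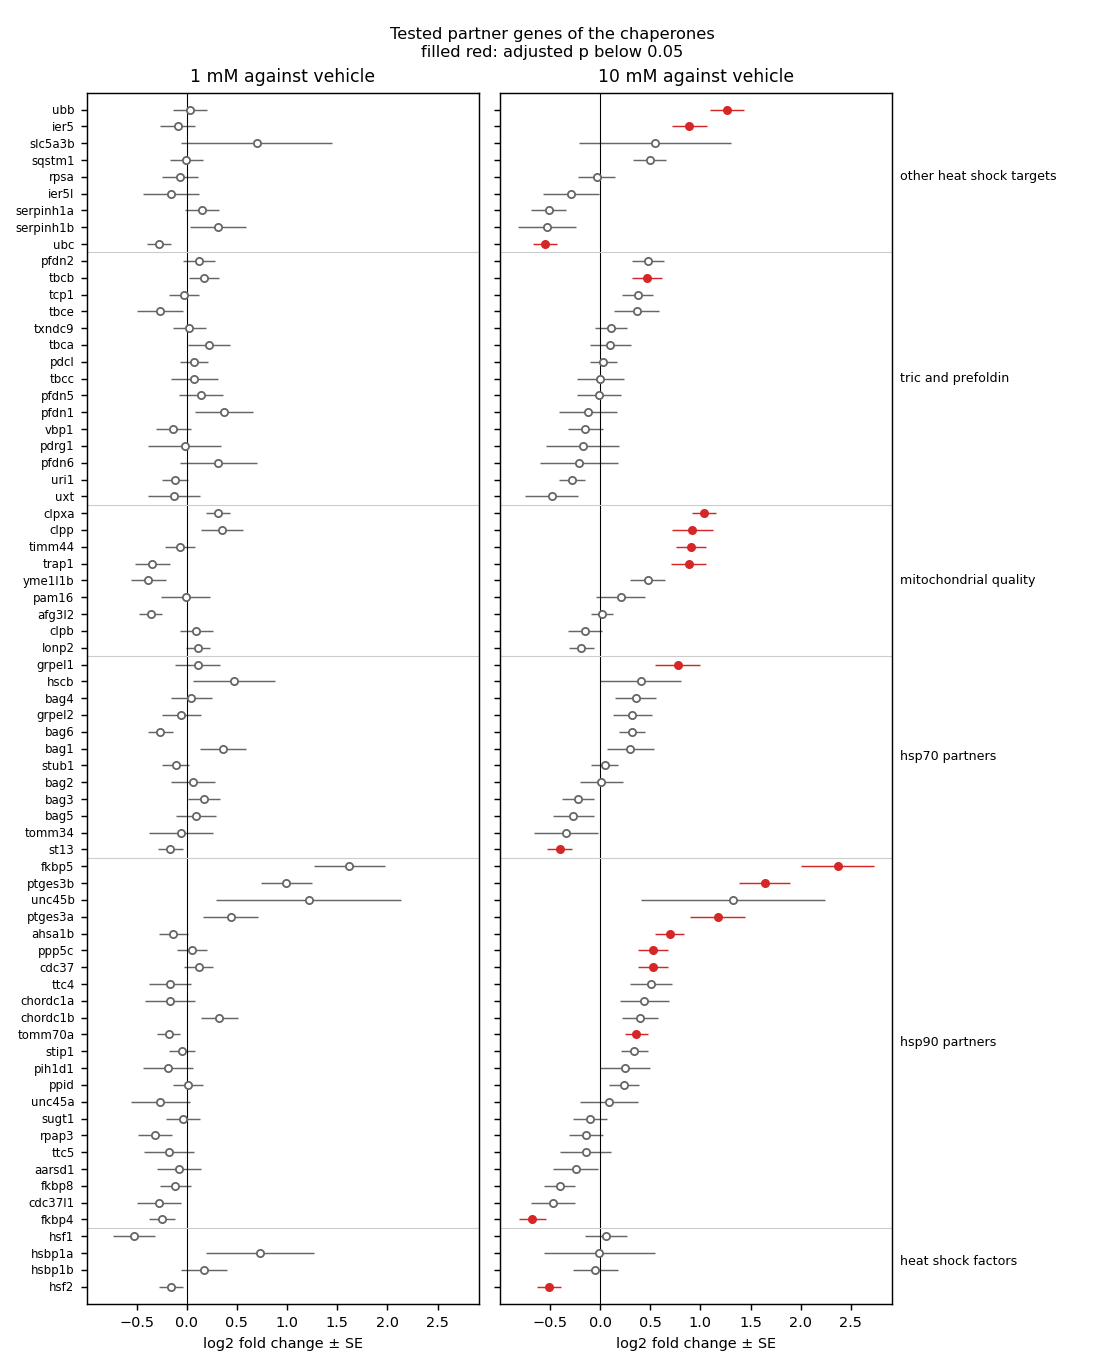
Log2 fold change ± SE of the 71 tested partner genes at 1 mM and at 10 mM against vehicle, by list; filled red points have an adjusted p below 0.05. No point is filled at 1 mM; at 10 mM fkbp5 lies farthest to the right, at log2 2.37, and clpxa, clpp, timm44 and trap1 lead the list of mitochondrial quality control.

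The 11 chaperone genes that did not pass the count filter were hspb2, hspb3, hspb9, hspb9l and hspb15, at 0 counts in all 9 libraries, and hspa12a.3, hspa1b, hsp90aa1.1, dnajb5, dnajb13 and dnajc5aa, with at most 11 counts in any library. At this depth differences in them were not detectable. Of the 67 tested genes, dnajb4, hsp70.1 and hspb6 reached 10 counts in at most 2 of the 6 libraries outside 10 mM. Thus hsp70.1 and hspb6 passed the filter through the 10 mM group, where they were highest, and the filter favoured a difference in them. dnajb4 held 0 to 16 counts.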

How the data were processed

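Liver RNA of wild-type zebrafish larvae was measured by poly A RNA sequencing in 9 libraries, 3 per group, grouped by the treatment label. The deposited table holds counts of reads per gene for all libraries, and the authors used HISAT2, featureCounts and the GRCz11 build, per the submitters' processing notes; versions, the annotation, strand setting and treatment of reads with several hits are not stated there. Of the counts from 1 to 20 in a library, 75.2 to 82.9% were even, against 48.7 to 51.0% of those above 1000.

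From the counts, genes were filtered with filterByExpr (minimum count 10, minimum total 15), scaled by TMM and tested with the quasi-likelihood test of edgeR 4.0.16 in R 4.3.3, in 1 fit of all 9 libraries with a mean per group. The tests were two-sided, p-values were adjusted over all 16766 tested genes by Benjamini-Hochberg, and genes with an adjusted p below 0.05 were called. SEs were derived from the log2 fold change and its F value. Total counts were 29993109 to 41300673 per library, and the SEs reflect the spread between libraries as well as depth. The procedure was tested on simulated counts. Alternatives were DESeq2 1.42.0 (its Wald test, and its size factors in edgeR), no count filter, a filter of 5 CPM in 3 libraries, only the 6 libraries compared, a replicate block, leaving out mitochondrially encoded and the 20 most abundant genes, counts halved, and leaving out each library.

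The chaperone genes, lists and gene pairs were chosen with earlier results of these data known. Named were all chaperone genes called in any comparison, all Hsp90, Hsp70, Hsp110, mitochondrial chaperonin, small heat shock protein and CCT genes, and partner genes that were called; DnaJ genes and partners named without a call were chosen after their values were seen. No sequences were used. Chromosome neighbours come from the RefSeq table of GRCz12tu, where start positions served only to order the protein-coding genes.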

Additional observations from a re-analysis of the deposited data

How the results depend on the processing

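No call of a chaperone gene reversed its direction under any of the 17 alternatives. Against vehicle at 10 mM, 19 genes were higher, and 29 with only the 6 libraries compared, when 9.74% and 13.9% of all tested genes rose. The other alternatives that used all libraries gave 15 (replicate block) to 28 (DESeq2 Wald test), when 8.45% and 11.8% of all tested genes rose. Leaving out 1 library gave 11 (vehicle replicate 3) to 29 (1 mM replicate 3), when 6.29% and 13.1% rose. The 1 gene that was lower became 0 with no count filter and with the replicate block, and 0 to 1 when leaving out 1 library. Over all tested genes 7.43% fell, 5.25% with no count filter, 6.19% with the replicate block, and 4.47% to 10.3% when leaving out 1 library. At 1 mM, 0 genes were higher, 1 by the DESeq2 Wald test, 2 with no count filter and 0 to 2 when leaving out 1 library, and 0 were lower throughout. The 1 and the 2 with no count filter were 1.49% and 2.74% of the chaperone genes tested. Over all tested genes 0.889% rose at 1 mM, 2.53% by the DESeq2 Wald test and 1.68% with no count filter. When leaving out 1 library 0.11% to about 1% of all tested genes rose. At 10 mM against 1 mM, 19 were higher and 2 lower. The 19 in each 10 mM comparison include hspb6, and without it 18 of 66 were higher in each. The counts under the alternatives include hspb6 too, except with the filter of 5 CPM. Against vehicle they include hsp70.1 with the DESeq2 Wald test, no count filter, only the 6 libraries compared and halved counts. They also include it without 1 mM replicate 1 or 3, and between the doses without 1 mM replicate 1. In the main fit both genes passed the count filter through the 10 mM group. Between the doses, the alternatives with all libraries or the 6 compared gave 15 to 20 higher, and leaving out 1 library gave 16 to 32. Over all tested genes 9.39% rose, 14.6% with the filter of 5 CPM (15 of 41 chaperone genes) and 11.2% by the DESeq2 Wald test (20). It was 5.88% without 10 mM replicate 1 (16) and 11.9% without 1 mM replicate 3 (32). The count of 2 lower became 1 with the filter of 5 CPM, with only the 6 libraries compared and with the replicate block. It became 3 with the DESeq2 Wald test and with halved counts, and 0 to 3 when leaving out 1 library. Over all tested genes 9.41% fell, and 15%, 6.77%, 7.79%, 11% and 10.8% in those named fits, in that order. With only the 6 libraries compared, the 1 lower gene was dnajc9 (adjusted p = 0.0464). Both dnajc4 and hspb1 were lost in that fit (adjusted p = 0.0703 and 0.0516). With no count filter, dnajc4 was lost and dnajc9 gained. Of 510 recomputed family medians 40 moved by more than 1 SD. The causes were not tested. Whether the replicate numbers pair the libraries was not settled. At 10 mM against vehicle same-numbered libraries correlated at 0.0565, 0.0402 and 0.0439 in their deviations from the group means, each highest with its own number. Differently numbered libraries correlated there at -0.0367 to -0.0126. In the other comparisons same-numbered libraries correlated at -0.1114 to 0.0416 and differently numbered ones at -0.0429 to 0.1247. A search of promoters for heat shock elements was not run. Depth limits the inducible hsp70 copies and hspb6, which held few counts outside 10 mM.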
